A study of Mus musculus with 12 samples.

Results

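The 9 genes described here encode the enzymes that make serine from a glycolytic intermediate (Phgdh, Psat1 and Psph) and those that pass its carbon through folate, in the cytosol (Shmt1 and Mthfd1) and in mitochondria (Shmt2, Mthfd1l, Mthfd2 and Aldh1l2). They were chosen by symbol from the 52535 gene entries of the deposited count files, and all 9 were among the 14946 genes that passed the filter on low counts. RNA was sequenced from E14 mouse embryonic stem cells, of which 2 libraries came from wild type cells (WT) and 2 each from clone 1 and clone 2 of a Bcat1 knockout (KO1 and KO2). All were grown in medium with serum, L-glutamine, non-essential amino acids, LIF (a cytokine that keeps stem cells undifferentiated) and 2i, which blocks the kinases MEK and GSK3. Bcat1 encodes a cytosolic transaminase of branched-chain amino acids. Each knockout group is a single clone, so what else sets a clone apart from WT cannot be told apart from the labelled knockout. How the clones were made is not given in the sources used here. A further 6 samples of a differentiation experiment were not analysed here.

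Serine is built from 3-phosphoglycerate in a short pathway of oxidation, transamination and dephosphorylation. Serine hydroxymethyltransferases then split it into glycine and a carbon unit carried by tetrahydrofolate, which feeds purine and thymidylate synthesis and, by way of formate, moves between mitochondria and cytosol. Several of these genes are known targets of ATF4, the transcription factor of the amino acid stress response, and proliferating cells draw on the pathway for nucleotide synthesis. The non-essential amino acids added to such media include serine and glycine.

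Bcat1 itself stood at 602 and 614 CPM (counts per gene scaled to a common library size, with TMM factors) in WT, compared with 617 and 662 for clone 1 and 583 and 579 for clone 2. Its log2 fold change across both clones was 0.01 ± 0.08 (SE), with an adjusted p of 0.977, so the RNA level gave no check of the knockout label. Gene counts per library ranged from 11976149 to 13923262. The TMM factors were 1.03 and 1.04 in the clone 1 libraries and between 0.974 and 0.990 in the other 4. All 8 stem cell markers were present, with a summed level of 5519 to 6304 CPM. Against WT, 3 of them were called lower in clone 1 and 2 in clone 2, where 9.53% and 7.81% of all tested genes were lower. The summed level of 8 fibroblast and feeder markers was 23.7 and 23.9 CPM in WT, compared with 33.5 and 32.1 for clone 1 and 21.0 and 20.7 for clone 2. A single gene, Pdgfrb, made up most of each sum, at 20.6 and 19.2 CPM (WT), 24.2 and 24.5 (clone 1) and 18.1 and 16.8 (clone 2). Thy1 came next in every library, at 2.24 and 3.40 (WT), 5.79 and 5.06 (clone 1) and 1.35 and 1.58 (clone 2). The sum therefore does not stand for all 8 markers. Postn, Lum and Dcn were at 0 counts in all 6 libraries, while Col1a2 had 0 and 1 counts in WT and 11 to 22 in the clones. The part of fibroblasts or feeder cells in the results was not tested. Whether replicates were separate cultures is not in the labels, and the spread behind every p-value is that between these libraries, which may be technical. Fewer cells of a type and less RNA per cell cannot be told apart in such bulk samples.

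Promoter sequence from RefSeq (GRCm38.p6) was at hand for 8 of the 9 genes, all but Aldh1l2. There were 9 windows, each from 250 bases before to 50 after an annotated start, with 2 windows for Psat1. Stretches of 150 bases are printed for Psat1 and Mthfd2, whose RNA differed strongly between the clones, and for Shmt1, whose difference between the clones did not pass the test. Capitals mark CCAAT or its complement ATTGG and, in Psat1, a match to TGNTGCAAT. Both of these motifs were searched after the sequences had been seen.
Psat1: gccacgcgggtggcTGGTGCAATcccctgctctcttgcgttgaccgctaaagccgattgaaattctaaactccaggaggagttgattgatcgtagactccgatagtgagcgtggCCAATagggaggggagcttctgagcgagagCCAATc
Mthfd2: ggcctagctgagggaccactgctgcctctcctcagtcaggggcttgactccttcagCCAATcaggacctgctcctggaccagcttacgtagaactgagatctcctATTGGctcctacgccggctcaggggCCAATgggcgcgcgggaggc
Shmt1: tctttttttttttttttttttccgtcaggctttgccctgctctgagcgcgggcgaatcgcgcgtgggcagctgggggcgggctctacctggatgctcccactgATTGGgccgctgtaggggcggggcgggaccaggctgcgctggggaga

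All 3 stretches read 5′ to 3′ on the strand of the gene, which is the minus strand in each case. They lie at chr19:15925060-15925209 for Psat1, chr6:83317607-83317756 for Mthfd2 and chr11:60811266-60811415 for Shmt1, and hold no annotated exon. TGATGNAA, an element of the kind bound by ATF4 and C/EBP factors, was searched on both strands and was found in 0 of the 9 windows, against 3.97% of all 32851 windows in the table. CACGTG, the E-box, was likewise found in 0 of 9, against 7.15%. At such low shares, 0 of 9 windows does not set these genes apart from others, and sequence outside the windows was not searched. The variant TGNTGCAAT occurred once, in Psat1, at position -136 from the start, and was held by 0.673% of all windows. CCAAT, the core of the element bound by NF-Y, was found in 6 of the 9 windows, against 37.4% of all, and overlapped no other motif match. Those 6 belonged to Phgdh, Psat1, Psph, Mthfd2, Shmt1 and Mthfd1, so they included both genes whose clone difference passed the test and genes whose difference did not.

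Relative to length, Psat1 and Shmt2 RNAs were the most abundant of the 9 in WT. Levels between genes were compared as CPM per kb of merged exons (GENCODE M21). Psat1 stood at 144 ± 4.93 (SD, n = 2) and Shmt2 at 116 ± 2.88. Mthfd1 followed at 78.8 ± 1.86 and Phgdh at 71.8 ± 3.13. These 4 genes held the same WT places when the longest transcript was used as the length. Shmt1 at 52.7 ± 1.05 and Mthfd2 at 51.5 ± 2.11 overlapped between libraries, and they changed places with the longest transcript as the length. Mthfd1l reached 37.0 ± 0.0213, Psph 12.5 ± 0.731 and Aldh1l2 2.67 ± 0.273 CPM per kb. All other neighbours in the WT order were separated in both libraries.

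**Figure D1:**
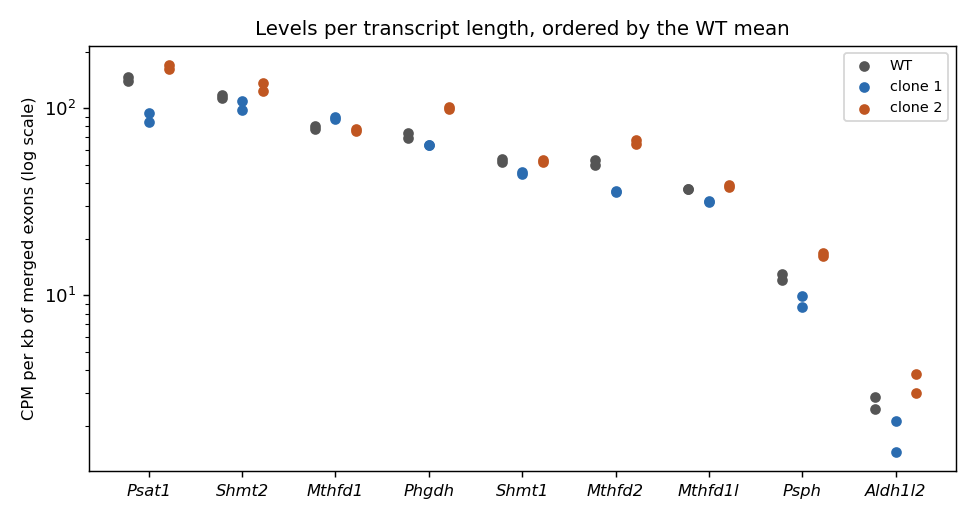
CPM per kb of merged exons on a log axis for the 9 genes, ordered by the WT mean, with 1 point for each library of WT, clone 1 and clone 2. Psat1 led in WT and clone 2, while Shmt2 stood above it in both clone 1 libraries with this length, though not per kb of the longest transcript, and Aldh1l2 was the lowest in every library.

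On merged exons, the order in the clones differed from that in WT. In clone 1, Shmt2 at 104 ± 7.37 CPM per kb stood above Psat1 at 89.7 ± 6.93, and Psat1 overlapped with Mthfd1 at 88.6 ± 1.67. That place of Shmt2 rests on the length used: per kb of the longest transcript, Psat1 at 146 ± 11.3 and Shmt2 at 141 ± 10.01 overlapped in clone 1, with Psat1 first by mean. In clone 2, Psat1 was again first at 166 ± 5.38, and Phgdh at 100 ± 1.32 had moved above Mthfd1 at 76.6 ± 1.25. Mthfd2 lay below Shmt1 in both clone 1 libraries, 36.1 ± 0.322 against 45.1 ± 0.943, and above it in both clone 2 libraries, 65.8 ± 2.46 against 52.2 ± 0.605. Per kb of the longest transcript, Mthfd2 and Shmt1 overlapped in clone 1, at 60.4 ± 0.539 and 61.3 ± 1.28, while in clone 2 Mthfd2 was again above Shmt1 and Phgdh above Mthfd1.

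Clone 1 and clone 2 differed from each other in most of these genes, and the WT level lay between them. In 7 of the 9 both clone 1 libraries were below both WT libraries and both clone 2 libraries were above them in CPM. These were Phgdh, Psat1, Psph, Shmt2, Mthfd1l, Mthfd2 and Aldh1l2. Of all tested genes 3.57% had that order without overlap, and 3.49% had the opposite order, which 0 of the 9 had. Taken by pairs of groups, the libraries of clone 1 and WT did not overlap in 9 of the 9 genes, against 59.3% of all tested genes, those of clone 2 and WT in 7, against 61.3%, and those of the 2 clones in 9, against 54.6%. With both clones set against WT, 0 of the 9 were free of overlap, against 35.0%. The summed level of the 9 genes was 2140 and 2105 CPM in WT, compared with 1765 and 1741 for clone 1 and 2400 and 2403 for clone 2. Tests of single genes follow, by their place in the pathway. The comparisons of clone 1 and clone 2 with WT share the WT libraries.

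**Figure D2:**
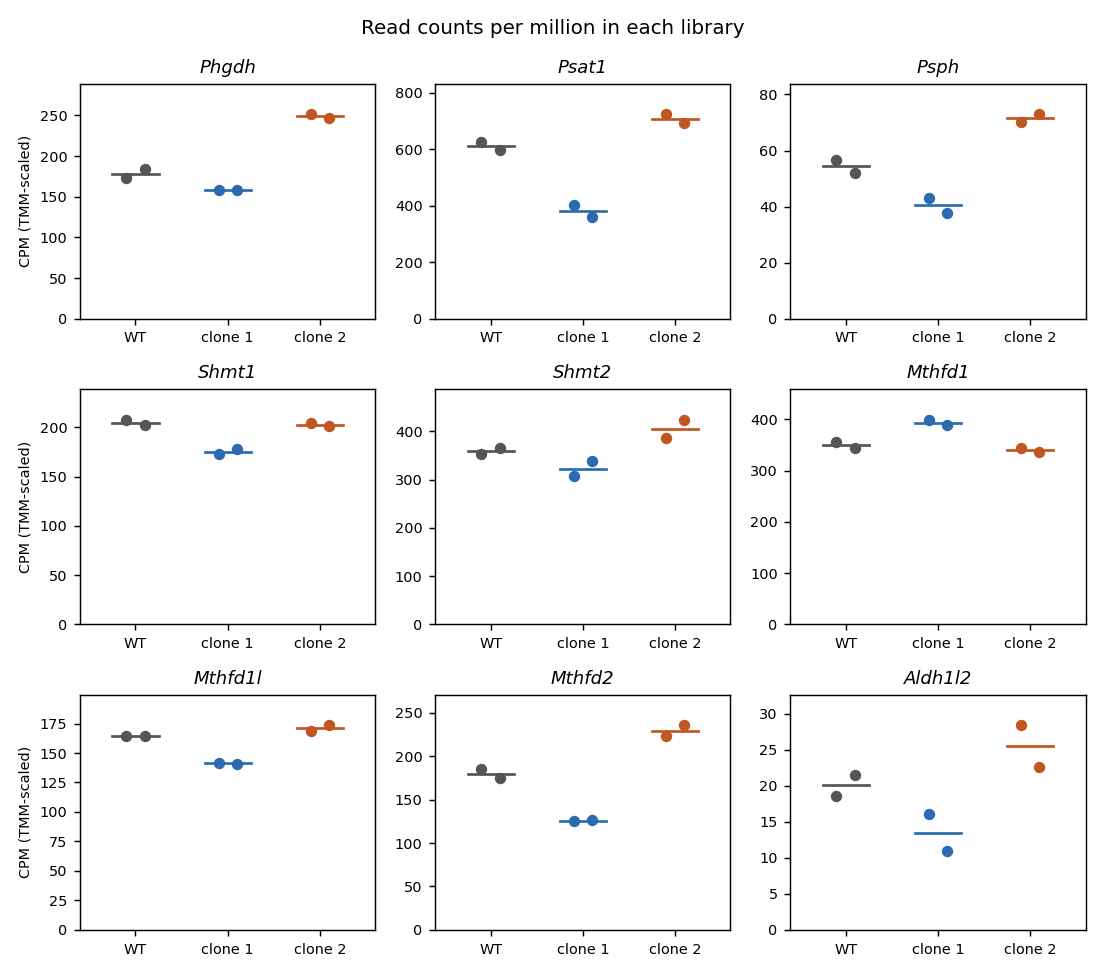
TMM-scaled CPM of each gene, with 1 point for each library and a line at the mean of the 2 libraries in WT, clone 1 and clone 2. Each vertical axis starts at 0. In 7 panels the clone 1 points lie below and the clone 2 points above the WT points, while Shmt1 in clone 2 overlaps with WT and Mthfd1 is highest in clone 1.

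Phgdh encodes phosphoglycerate dehydrogenase, which takes the first step away from glycolysis (chromosome 3, 98313170 to 98339990, GRCm38). Its level was 173 and 184 CPM in WT, compared with 159 and 159 for clone 1 and 251 and 247 for clone 2. The clone 2 libraries stood well above all others, while clone 1 was slightly below WT. Against WT, clone 2 rose by 0.48 ± 0.08 on the log2 scale, or 1.40-fold, with an adjusted p of 3.68e-04. Clone 1 had a log2 fold change of -0.17 ± 0.08, with an adjusted p of 0.138. Between the clones, clone 2 was higher by 0.65 ± 0.08, with an adjusted p of 3.25e-05. Phgdh has 19 annotated copies elsewhere in the genome that align over 200 bases or more at 90.4% to 98.7% identity. The 14 copies listed in the files had at most 25 counts in a library, and how reads shared with them were counted is not known, so its level is uncertain.

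Psat1, phosphoserine aminotransferase, uses glutamate to add the amino group (chromosome 19, 15904678 to 15947337). It was measured at 626 and 597 CPM in WT, compared with 402 and 361 for clone 1 and 723 and 691 for clone 2. No group overlapped with another, and the gap below WT in clone 1 was wider than that above it in clone 2. Clone 1 fell by 0.68 ± 0.08 (log2), with an adjusted p of 1.12e-05, and was thus 1.60-fold lower. In clone 2 the log2 fold change of 0.21 ± 0.08 did not pass the test (adjusted p = 0.0758). With the replicate number added as a block it passed (0.0125). It passed when either clone 1 library was left out of the shared fit, replicate 1 (0.00424) or 2 (0.00367), and in a fit of the WT and clone 2 libraries alone (0.00872). Clone 2 was higher than clone 1 by 0.89 ± 0.08, with an adjusted p of 1.14e-06, or 1.85-fold.

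Psph, phosphoserine phosphatase, completes serine (chromosome 5, 129765558 to 129787449). Libraries of WT had 56.5 and 52.1 CPM, those of clone 1 had 43.1 and 37.7, and those of clone 2 had 70.3 and 72.9. The 3 groups were apart from each other, with similar distances on either side of WT. Clone 1 fell by 0.43 ± 0.11 (log2), with an adjusted p of 0.00873, and clone 2 rose by 0.40 ± 0.10, with an adjusted p of 0.0128. The call in clone 1 was lost without WT replicate 1 (0.107). In clone 2 it was lost without WT replicate 1 (0.0597) or 2 (0.148) and without KO2 replicate 1 (0.0830) or 2 (0.117). Clone 2 exceeded clone 1 by 0.83 ± 0.11, with an adjusted p of 6.04e-05, which held in every setting tried. Exons of Cct6a on the opposite strand cover 10.4% of the Psph exons, and Cct6a had a log2 fold change of 0.0027 ± 0.08 between the clones.

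Shmt1 and Shmt2 encode the cytosolic and the mitochondrial serine hydroxymethyltransferase, which move a carbon from serine to folate. Shmt1 (chromosome 11, 60788104 to 60811718) stood at 208 and 202 CPM in WT, compared with 173 and 178 for clone 1 and 204 and 201 for clone 2. Only the clone 1 libraries were lower, and clone 2 overlapped with WT. Its fall in clone 1, by 0.22 ± 0.08 (log2), passed the test narrowly, with an adjusted p of 0.0476. That call was lost by DESeq2 (0.0640) and without WT replicate 1 (0.226) or 2 (0.143), KO1 replicate 1 (0.0616) or KO2 replicate 1 (0.0999) or 2 (0.107), and in 4 other settings (0.0531 to 0.246). In clone 2 the log2 fold change was -0.01 ± 0.08. The difference between the clones, 0.21 ± 0.08 with a 95% interval of 0.0462 to 0.375, had an adjusted p of 0.0830. With the replicate number as a block it passed (0.0283). It passed without KO1 replicate 2 (0.0321).

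Shmt2 (chromosome 10, 127517123 to 127522444) was at 353 and 366 CPM in WT, compared with 306 and 339 for clone 1 and 386 and 424 for clone 2. The groups did not overlap, but the libraries within each clone differed more than those of WT. Neither clone passed the test against WT, with log2 fold changes of -0.16 ± 0.08 in clone 1 (adjusted p = 0.191) and 0.17 ± 0.08 in clone 2 (adjusted p = 0.165). Clone 1 passed without KO1 replicate 2 (0.0169), and clone 2 passed without KO1 replicate 1 (0.0305) or 2 (0.0290) and in a fit of the WT and clone 2 libraries alone (0.0440). Without KO1 replicate 1 the clone 1 value was -0.087 (adjusted p = 0.477), and without KO2 replicate 2 the clone 2 value was 0.10 (adjusted p = 0.664). Between the clones, Shmt2 was higher in clone 2 by 0.33 ± 0.08, with an adjusted p of 0.0123, a call lost without KO2 replicate 2 (0.213). Ndufa4l2, whose exons share 32 bases with Shmt2 on the opposite strand, changed the other way, with clone 2 lower than clone 1 by a log2 value of -0.93 ± 0.14.

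Mthfd1 and Mthfd1l carry the later folate steps in the cytosol and in mitochondria. Mthfd1, the trifunctional cytosolic enzyme that takes up formate (chromosome 12, 76255298 to 76319803), was the exception in its direction. It reached 399 and 388 CPM in clone 1, against 356 and 344 in WT and 344 and 336 in clone 2. Clone 1 lay above all other libraries, while clone 2 and WT overlapped. The log2 fold change was 0.17 ± 0.07 in clone 1 (adjusted p = 0.114) and -0.04 ± 0.07 in clone 2 (adjusted p = 0.763). Clone 2 against clone 1 gave -0.21 ± 0.07, with an adjusted p of 0.0709. With the replicate number as a block, this difference (0.0174) and the clone 1 value (0.0428) passed. With library totals in place of TMM factors, the clone 1 value passed the test at 0.26 (adjusted p = 0.0187) and the clone difference at -0.28 (adjusted p = 0.0174), as both did with upper-quartile factors (0.0464 and 0.0316). The clone difference also passed without KO1 replicate 2 (0.0217).

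Mthfd1l, which releases formate in mitochondria (chromosome 10, 3973118 to 4167081), was measured at 164 and 164 CPM in WT, compared with 142 and 141 for clone 1 and 169 and 174 for clone 2. The drop in clone 1 was larger than the spread within any group. Yet the log2 fold change of -0.22 ± 0.08 missed the threshold, with an adjusted p of 0.0568. With the replicate number as a block it passed (0.0190). It passed without KO1 replicate 1 (0.0433). Clone 2 had a log2 fold change of 0.06 ± 0.08 (adjusted p = 0.667). Between the clones Mthfd1l was higher in clone 2 by 0.28 ± 0.08, with an adjusted p of 0.0255. That call was lost without WT replicate 1 (0.0522) or 2 (0.0528), without KO2 replicate 1 (0.159) or 2 (0.232), with library totals (0.101) or upper-quartile factors (0.0598) in place of TMM factors, and in a fit of the 4 clone libraries alone (0.0534).

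Mthfd2 showed the clearest change on the mitochondrial side. It encodes the dehydrogenase and cyclohydrolase that is high in embryonic and dividing cells (chromosome 6, 83305691 to 83325908). Levels were 185 and 174 CPM in WT, compared with 125 and 127 for clone 1 and 224 and 236 for clone 2. Every library of a clone lay apart from WT, below it in clone 1 and above it in clone 2. Mthfd2 fell by 0.51 ± 0.08 (log2) in clone 1, with an adjusted p of 2.27e-04, and rose by 0.35 ± 0.08 in clone 2, with an adjusted p of 0.00491. The rise in clone 2 was lost without WT replicate 2 (0.0876) or KO2 replicate 2 (0.101). The clones differed by 0.87 ± 0.08, or 1.82-fold, with an adjusted p of 1.96e-06, and the highest adjusted p over all settings was 1.47e-04.

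Aldh1l2, the mitochondrial enzyme that oxidises formyl-folate to carbon dioxide (chromosome 10, 83487450 to 83534140), was the scarcest, with 143 to 336 counts a library. It stood at 18.6 and 21.5 CPM in WT, compared with 16.0 and 10.97 for clone 1 and 28.4 and 22.5 for clone 2. The groups did not overlap, but the libraries within each clone were far apart. Clone 1 fell by 0.57 ± 0.18 (log2), with an adjusted p of 0.0283. The call was lost without WT replicate 1 (0.0723) or 2 (0.218), without KO1 replicate 2 (0.142) and with library totals in place of TMM factors (0.0632). The log2 value itself was -0.33 without KO1 replicate 2 and -0.87 without KO1 replicate 1. In clone 2 the log2 fold change was 0.34 ± 0.17 (adjusted p = 0.180), which passed without KO1 replicate 1 (0.0376) or 2 (0.0341) and in a fit of the WT and clone 2 libraries alone (0.0469). Without KO2 replicate 1 it was 0.16 (adjusted p = 0.733). Clone 2 exceeded clone 1 by 0.92 ± 0.18, with an adjusted p of 0.00190. D10Wsu102e, on the opposite strand, overlaps 14.1% of the Aldh1l2 exons and had a log2 fold change of -0.25 ± 0.10 between the clones, opposite in sign.

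By count, clone 1 against WT had 5 of the 9 genes called, Psat1, Psph, Shmt1, Mthfd2 and Aldh1l2, all lower, while 21.9% of all tested genes were called, 9.53% lower and 12.4% higher. Clone 2 against WT had 3 called, Phgdh, Psph and Mthfd2, all higher, beside 17.9% of all tested genes, 10.1% higher and 7.81% lower. The clone 1 libraries differed more from each other than the clone 2 libraries did, and the spread was shared. The 5 and 3 calls are therefore not directly comparable. Between the clones 7 of 9 were called, all higher in clone 2, beside 14.3% of all tested genes, 6.62% higher and 7.71% lower. The exceptions were Shmt1 and Mthfd1. The median log2 fold change of the 9 was -0.22 in clone 1, 0.21 in clone 2 and 0.65 between the clones, where the medians over all tested genes were -0.0010, -0.0017 and 0.00035. Without WT replicate 1 the count in clone 1 was 2, and without WT replicate 2 it was 3. In clone 2 it was 1 without WT replicate 2 or KO2 replicate 2 and 6 without either clone 1 library, and between the clones it was 5 or more with each library left out in turn.

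**Figure D3:**
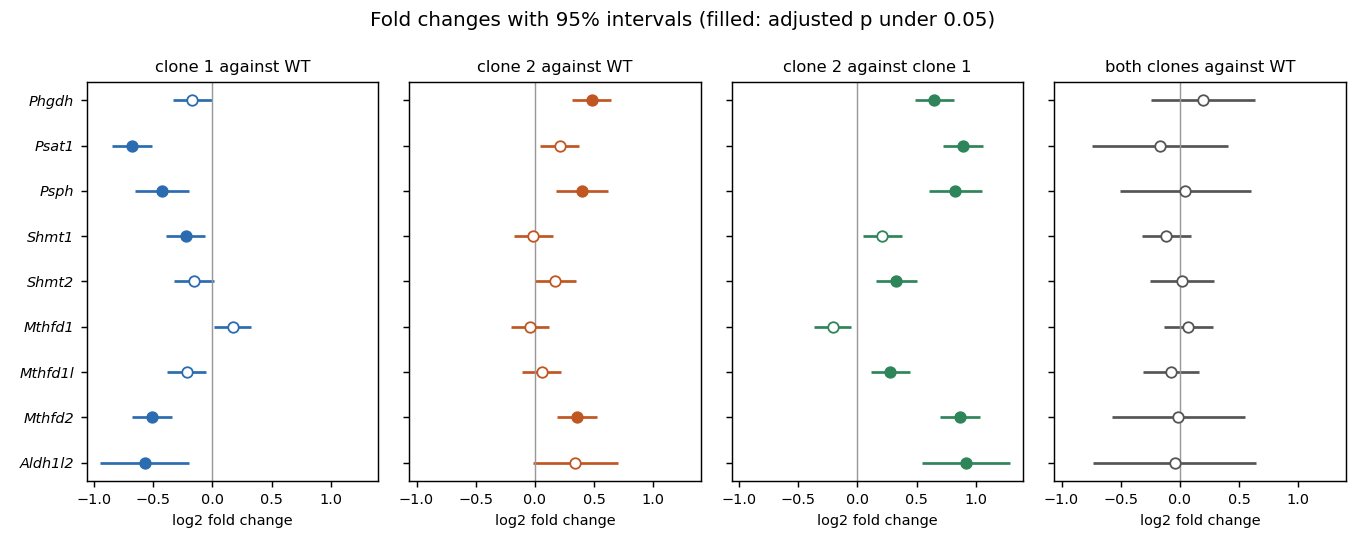
Log2 fold changes of the 9 genes with 95% intervals in 4 comparisons, with filled points where the adjusted p was under 0.05. The 7 filled points between the clones lie between 0.28 and 0.92, and all 9 intervals for the clones joined into 1 genotype cross 0.

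With both clones joined into 1 genotype and set against WT, 0 of the 9 genes were called by edgeR, 0 had an unadjusted p under 0.05 and DESeq2 called 0, beside 6.36% of all tested genes, with 4.25% higher. For every enzyme but Shmt1 the log2 fold changes of clone 1 and clone 2 against WT had opposite signs. The joined log2 fold changes ran from -0.17 ± 0.26 for Psat1 to 0.19 ± 0.20 for Phgdh. Their 95% intervals were wide where the clones were far apart, as in Psat1, from -0.74 to 0.41, and Aldh1l2, from -0.73 to 0.64. They were narrower in Mthfd1, from -0.14 to 0.28, and Shmt1, from -0.32 to 0.09. As the mean of both clone contrasts, with the spread taken within groups, Psat1 passed the test at -0.24 (adjusted p = 0.0189).

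Within each library, the mitochondrial enzymes were set against their cytosolic counterparts as ratios of CPM per kb. Mthfd2 over Mthfd1 was 0.662 and 0.646 in WT, compared with 0.400 and 0.416 for clone 1 and 0.827 and 0.893 for clone 2. Mthfd1l over Mthfd1 was 0.463 and 0.478 in WT, compared with 0.356 and 0.363 for clone 1 and 0.491 and 0.517 for clone 2. In both ratios the groups were ordered as the levels of the mitochondrial gene were. The ratio of Shmt2 to Shmt1 was 2.12 and 2.26 in WT, compared with 2.22 and 2.38 for clone 1 and 2.36 and 2.63 for clone 2, so clone 1 overlapped with WT and with clone 2, while clone 2 lay above WT. Such ratios do not depend on the library's scaling factor.

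A likeness measure was the root mean square difference of mean-centred log2 CPM over the 6 libraries. It placed Psph nearest to both Phgdh (0.137) and Mthfd2 (0.0711) among the 9, and Shmt1 nearest to Mthfd1 (0.194). Mthfd1 and Shmt1 still went opposite ways from WT to clone 1. Their mean levels went from 350 to 394 CPM in Mthfd1 and from 205 to 175 CPM in Shmt1. Among other tested genes of at least 10 CPM on average, predicted genes passed over, Nxpe3 (0.0248), Icmt (0.0398) and Foxk2 (0.0417) were nearest to Phgdh. Creld1 (0.0621), Mirg (0.0625) and March2 (0.0756) were nearest to Mthfd2. Usp22 (0.0172), Rad18 (0.0308) and Pole4 (0.0308) were nearest to Mthfd1. With 6 libraries in 3 groups, the measure reflects mostly the 3 group means.

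Of 14 other folate enzymes and carriers, 12 were tested. In clone 1, 1 rose and 2 fell, where 21.9% of all tested genes were called, and in clone 2, 1 rose and 2 fell, where 17.9% were. Between the clones, where 14.3% of all tested genes were called, edgeR called 0 and DESeq2 called 0, while 4 had an unadjusted p under 0.05. Mthfd2l, the mitochondrial relative of Mthfd2, was low, at 2.85 and 3.03 CPM in WT, and fell by 1.47 ± 0.40 (log2) in clone 1 and by 1.31 ± 0.40 in clone 2, so it was below WT in both clones, unlike Mthfd2. Ggh, a lysosomal hydrolase that trims folate tails, rose by 1.02 ± 0.24 in clone 1 and by 0.98 ± 0.24 in clone 2. With both clones joined these were the 2 called genes of the list, Mthfd2l at -1.39 ± 0.34 and Ggh at 1.00 ± 0.23. Fpgs, which adds the folate tail, fell by 0.37 ± 0.10 in clone 1, and the folate receptor gene Folr1 fell by 0.47 ± 0.11 in clone 2. Tyms, Gart and Atic, which use folate for nucleotides, were not called in any comparison. DESeq2 did not call Mthfd2l in any of the 3 comparisons (0.0555 to 0.111), and with library totals Fpgs was lost in clone 1 (0.0597). With the replicate number as a block, the joined calls of Ggh (0.0536) and Mthfd2l (0.0686) were lost. Each of these folate calls was also lost in the absence of at least 1 library. Without WT replicate 2 these were Mthfd2l in clone 1 (0.0921) and clone 2 (0.150), Ggh in clone 1 (0.0802) and clone 2 (0.110), Fpgs in clone 1 (0.204) and Folr1 in clone 2 (0.104). Without WT replicate 1, Mthfd2l was lost in clone 1 (0.0720) and clone 2 (0.125). Without KO2 replicate 1, it was lost in clone 2 (0.230), as was Folr1 (0.0634). Without KO2 replicate 2, Mthfd2l (0.0653), Ggh (0.0511) and Folr1 (0.0596) were lost in clone 2. With both clones joined, Ggh was lost without every library but KO1 replicate 2 (highest 0.296) and Mthfd2l without every library but KO2 replicate 2 (highest 0.280).

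Of the 4 genes of the glycine cleavage system, which also loads folate with carbon in mitochondria, 2 fell in clone 2 (17.9% of all tested genes called), 1 fell in clone 1 (21.9%), and 2 were lower in clone 2 than in clone 1 (14.3%). Gldc, its decarboxylase, stood at 185 and 187 CPM in WT, compared with 191 and 206 for clone 1 and 81.6 and 78.0 for clone 2. It fell by 1.22 ± 0.08 (log2) in clone 2 against WT and was lower there than in clone 1, at -1.31 ± 0.08. Gcsh, the carrier protein, fell by 0.58 ± 0.09 in clone 1 and by 0.87 ± 0.09 in clone 2, and by 0.72 ± 0.11 with both joined. The joined call was lost without WT replicate 1 (0.145) or 2 (0.0688). Clone 2 was below clone 1 in Gcsh at -0.29 ± 0.09, a call lost by DESeq2 (0.0525), without WT replicate 1 (0.0573) or 2 (0.0573) and without KO2 replicate 1 (0.142) or 2 (0.302). The Gcsh call between the clones was also lost in a fit of the 4 clone libraries alone (0.0533). Amt and Dld were not called in any comparison.

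Genes of serine transport and use had 12 of 14 tested, and 5 of them differed between the clones, all higher in clone 2, beside 14.3% of all tested genes called and 6.62% higher. They included Cbs, which joins serine to homocysteine, at 1.60 ± 0.11 (log2), and the amino acid carriers Slc38a2 at 0.80 ± 0.08, Slc1a4 at 0.43 ± 0.10 and Slc38a1 at 0.41 ± 0.08. Slc1a4 lost its call without KO2 replicate 1 (0.0722) or 2 (0.0743), and Slc38a1 without KO2 replicate 2 (0.0641). Against WT, 5 fell in clone 1, beside 9.53% of all tested genes that fell, with Cbs falling by 1.78 ± 0.10, Slc1a4 by 0.53 ± 0.10 and Sptlc1, a subunit of the enzyme that starts sphingolipids from serine, by 0.37 ± 0.10. In clone 2, 3 rose and 1 fell, beside 10.1% and 7.81% of all tested genes, with rises of 0.37 ± 0.10 in Ptdss1, which makes phosphatidylserine, 0.28 ± 0.08 in Slc1a5 and 0.25 ± 0.08 in Slc38a1. Sfxn1, the mitochondrial serine carrier, did not follow that pattern and fell by 0.33 ± 0.09 in clone 1, by 0.44 ± 0.09 in clone 2 and by 0.38 ± 0.09 with both joined, the 1 call of the list there. Without WT replicate 1 the calls of Sptlc1 (0.208) and Sfxn1 (0.163) in clone 1 were lost, as were those in clone 2 of Sfxn1 (0.0700), Ptdss1 (0.124), Slc1a5 (0.120) and Slc38a1 (0.302). Without WT replicate 2, Ptdss1 (0.141), Slc1a5 (0.158) and Slc38a1 (0.133) were lost in clone 2. Without KO2 replicate 1 (0.127 to 0.276) or 2 (0.0614 to 0.303) these 3 were lost too, and Sfxn1 without KO2 replicate 2 (0.0546). DESeq2 did not call Slc38a1 in clone 2 (0.0850). That call was also lost with RLE in place of TMM factors (0.0505) and without the filter (0.0599). With library totals in place of TMM factors, Sptlc1 (0.0691) and Sfxn1 (0.0664) were lost in clone 1 and Sfxn1 with both clones joined (0.0702). The joined call of Sfxn1 was also lost without WT replicate 1 (0.341) or 2 (0.153) and KO2 replicate 1 (0.0630) or 2 (0.0660).

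**Figure D4:**
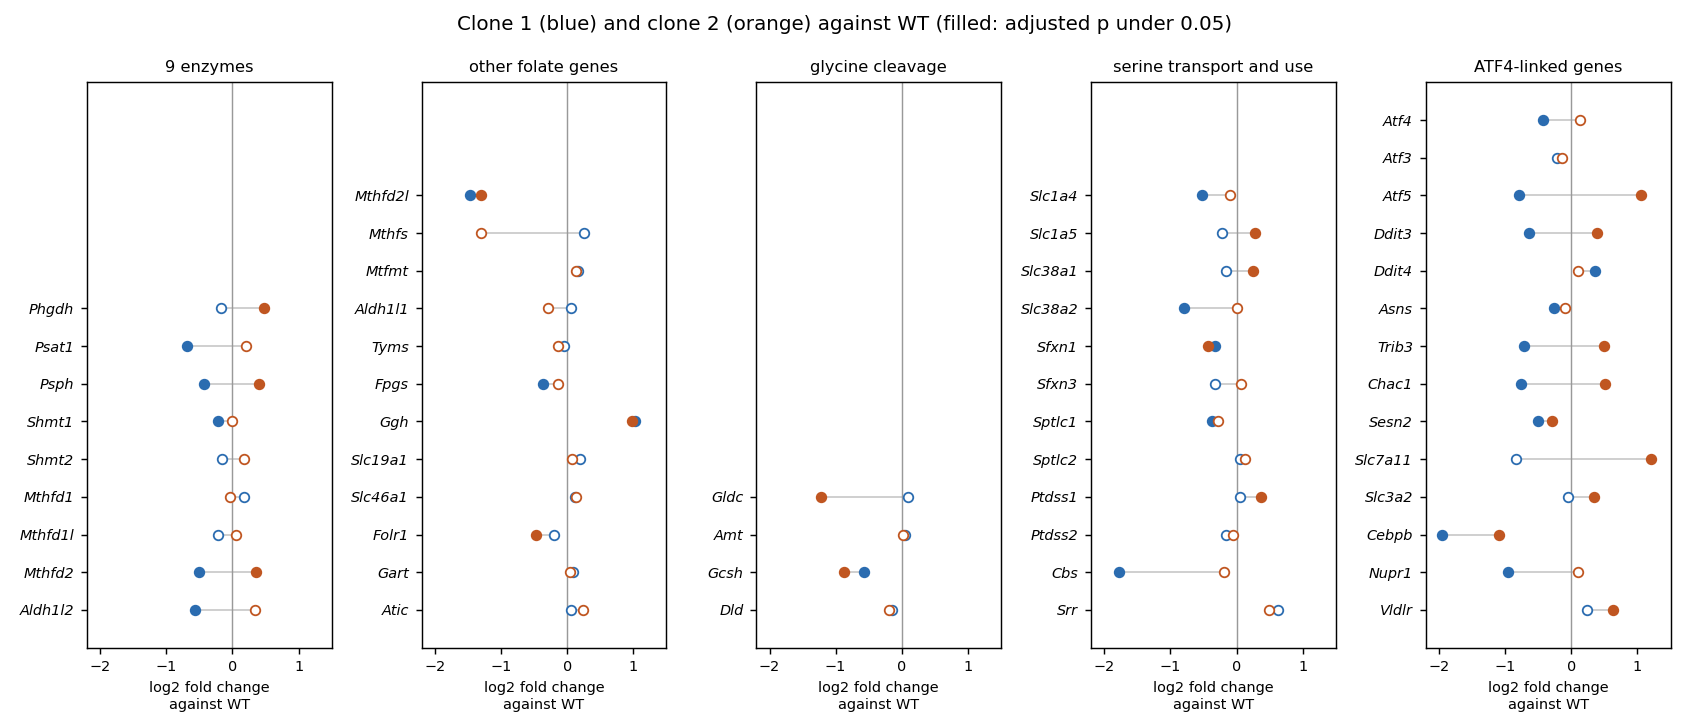
Log2 fold change against WT for clone 1 (blue) and clone 2 (orange) in the 9 enzymes and in 4 lists of related genes, with filled points where the adjusted p was under 0.05 and a grey line joining both values of a gene. Mthfd2 and Psph have filled points on opposite sides of 0, as Atf5, Ddit3, Trib3 and Chac1 do. Both filled points of Mthfd2l, Gcsh, Sfxn1, Cebpb and Sesn2 lie below 0.

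Genes linked to ATF4 other than the 9 were split between the clones as well. Between the clones 9 of 14 were called, all higher in clone 2, beside 14.3% of all tested genes called and 6.62% higher. Against WT, 9 fell and 1 rose in clone 1, beside 9.53% and 12.4% of all tested genes. In clone 2, 7 rose and 2 fell, beside 10.1% and 7.81%. Atf4, named here with Trib3 and Chac1 after their values were seen, was at 401 and 415 CPM in WT, compared with 302 and 307 for clone 1 and 449 and 448 for clone 2. It fell by 0.42 ± 0.07 (log2) in clone 1, had a log2 fold change of 0.14 ± 0.07 in clone 2 (adjusted p = 0.225) and was higher in clone 2 than in clone 1 by 0.56 ± 0.07. Trib3, a pseudokinase, fell by 0.71 ± 0.11 in clone 1 and rose by 0.49 ± 0.11 in clone 2, and Chac1, a glutathione-degrading enzyme, fell by 0.76 ± 0.14 and rose by 0.51 ± 0.13. Atf5 and Ddit3, also named after their values were seen, were likewise called in opposite directions. Their log2 fold changes in clone 1 and clone 2 were -0.78 ± 0.14 and 1.05 ± 0.13 for Atf5 and -0.63 ± 0.11 and 0.40 ± 0.10 for Ddit3. The calls of Atf5 and Ddit3 were not followed through the alternative settings, so whether they hold there is not known. Between the clones Trib3 differed by 1.20 ± 0.11 and Chac1 by 1.27 ± 0.13. Slc7a11, the cystine carrier, was higher in clone 2 than in clone 1 by 2.04 ± 0.41. Its level was low, with 10 and 10 counts in clone 1 and 40 and 39 in clone 2. Nupr1, a stress-induced nuclear protein, was higher in clone 2 than in clone 1 by 1.05 ± 0.11. Cebpb, a C/EBP factor, differed in the same direction by 0.85 ± 0.22 and Slc3a2, an amino acid carrier chain, by 0.40 ± 0.08. Some members moved otherwise, since Cebpb fell by 1.95 ± 0.21 in clone 1 and by 1.10 ± 0.19 in clone 2, and Sesn2, a sestrin, by 0.51 ± 0.09 and by 0.29 ± 0.09. Asns, asparagine synthetase, fell by 0.27 ± 0.07 in clone 1 and Ddit4 rose there by 0.36 ± 0.10, while Vldlr, a lipoprotein receptor, rose by 0.64 ± 0.19 and Slc3a2 by 0.35 ± 0.08 in clone 2. With both clones joined only Cebpb was called, at -1.47 ± 0.28. Among these ATF4-linked calls, those lost without WT replicate 1 were Asns (0.138) and Ddit4 (0.235) in clone 1, Chac1 (0.195), Trib3 (0.103), Sesn2 (0.0852), Slc3a2 (0.0781) and Vldlr (0.214) in clone 2 and Cebpb with both clones joined (0.129). Without WT replicate 2 they were Ddit4 in clone 1 (0.0598), Sesn2 (0.221) and Slc3a2 (0.0578) in clone 2 and the joined Cebpb (0.217). Asns was also lost with library totals in place of TMM factors (0.100), and Vldlr by DESeq2 (0.0731). Ddit4 was also lost without KO1 replicate 2 (0.0573). Without KO2 replicate 1, Chac1 (0.0772), Sesn2 (0.179), Slc3a2 (0.0607) and Vldlr (0.0670) were lost in clone 2. Without KO2 replicate 2 the losses in clone 2 were Chac1 (0.0568), Trib3 (0.0653), Sesn2 (0.149), Slc3a2 (0.0839) and Vldlr (0.179), and between the clones Cebpb (0.170) and Slc3a2 (0.0509). The differences between the clones in Atf4, Trib3, Chac1, Nupr1 and Slc7a11 were called in every setting tried.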

How the data were processed

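The deposited files hold whole-number counts of reads per gene symbol, made by the authors and not normalised. The total RNA had been depleted of ribosomal RNA, per the labels' protocols. The submitters' processing notes list the build mm10 with DESeq2 1.18.1, HTSeq 0.9.1 and HISAT2 2.1.0 but no role for any. The annotation and the strand setting of the counting were not given in the sources used here, so overlapping genes on opposite strands cannot be separated. The 5 HTSeq summary entries (reads without a feature 4.14% to 5.35% of reads, ambiguous reads 6.96% to 9.10%) stayed out of library sizes and tests. Tests used edgeR 4.0.16 (R 4.3.3) with filterByExpr, TMM and the two-sided quasi-likelihood F test over all 14946 genes, with Benjamini-Hochberg adjustment at 0.05. The genotype comparison had genotype as its only term and took the 4 libraries of 2 clones for independent samples, which can make its p-values too small. The other contrasts came from a fit of 3 groups. SE is the log2 fold change over the root of F. The fits were run on simulated counts of independent libraries, with planted changes and the same spread in every group. These counts held no replicate effect, so they do not cover a noisier group, a shared batch or the use of 2 clones as replicates. Alternatives were DESeq2 1.42.0, other size factors and filters, a replicate block, fits of 4 libraries, each library left out in turn and the mean of both clone contrasts. Library totals without TMM factors were added after seeing the data. The chi-square between replicates was 3.57 per gene in WT, 8.79 in clone 1 and 3.27 in clone 2, above what sampling noise gives. As the 3 groups shared an estimate of the spread, it can be too small for clone 1 and too large for clone 2. GENCODE M21 (GRCm38, equivalent to mm10) gave lengths and positions, and copies were sought among its transcripts with blastn. Figures used matplotlib 3.10.9.

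The members, the lists and the rule for named genes were chosen with earlier results of these data known. The rule took all 9 enzymes, Bcat1, up to 4 called genes of each list and comparison with the smallest genotype p, and the 3 genes nearest to Phgdh, Mthfd1 and Mthfd2. Some genes of the folate list are not reported here.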

Additional observations from a re-analysis of the deposited data

Results flagged for a closer look

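The effects of the 2 clones differed from each other, by the test of clone 2 against clone 1, in 7 of the 9 enzymes. The log2 differences were 0.65 in Phgdh, 0.89 in Psat1, 0.83 in Psph, 0.33 in Shmt2, 0.28 in Mthfd1l, 0.87 in Mthfd2 and 0.92 in Aldh1l2, each higher in clone 2. Beside them, 14.3% of all tested genes differed between the clones. No cause of the difference was tested, and a clone cannot be told apart from what else separates its cells from WT.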

How the results depend on the processing

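Of 9 enzymes and 14 alternative settings, 112 of 126 values between the clones kept their direction and their side of the threshold, 105 of 126 in clone 1, 108 of 126 in clone 2 and 109 of 126 with both clones joined. The count of called enzymes with both clones joined was 0, or 1 as the mean of both clone contrasts, and 0 to 0 with each library left out. In clone 1 it was 5, and 2 to 5 with a library left out. In clone 2 it was 3, 6 when only its 4 libraries were fitted, and 1 to 6 with a library left out. Between the clones it was 7, and 5 to 9 with a library left out. Values near 0 changed sign for both clones joined: Mthfd2 to 0.0051 with upper-quartile factors and 0.029 with library totals, Aldh1l2 to 0.0021 with library totals, Psph to -0.013 as the mean of the clone contrasts and Bcat1 to -0.0011 without the filter. With a library left out, the joined values ranged from -0.18 to 0.12 in Mthfd2, -0.29 to 0.15 in Aldh1l2, -0.11 to 0.19 in Psph, -0.066 to 0.091 in Shmt2 and -0.035 to 0.028 in Bcat1. Shmt1 in clone 2 went to 0.0041 with library totals, and ranged from -0.035 to 0.0062 with a library left out. The share of all tested genes called rose from 6.36% to 21.6% as the mean of the clone contrasts, and fell from 21.9% to 13.6% in clone 1, 17.9% to 11% in clone 2 and 14.3% to 9.11% between the clones without the filter. It was 28.4% in clone 2 in a fit of 4 libraries. With a library left out it ranged from 0.504% to 6.05% for both clones joined, 10.05% to 27.6% in clone 1, 7.43% to 26.8% in clone 2 and 6.17% to 20.2% between the clones. Of all called genes 56.6% were higher in clone 1, 67.1% with upper-quartile factors and 75.0% with library totals, and between the clones 46.2%, against 30.1% with library totals. A replicate block gave 0 called enzymes for both clones joined, 7 in clone 1, 4 in clone 2 and 9 between the clones. Whether libraries of the same replicate number share more than that number is not in the labels. Correlations of their deviations between groups were 0.0513, -0.0125 and 0.125. Ambiguous reads were higher in replicate 2 in WT (8.40% and 8.73%), clone 1 (6.96% and 9.10%) and clone 2 (7.62% and 8.49%). With the block, called genes went from 3280 to 4410 in clone 1, 2674 to 3685 in clone 2 and 2141 to 3007 between the clones. They went from 951 to 646 for both clones joined. A shared batch was not tested. With the longest transcript as length, 7 of the 9 enzymes kept their WT place.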
